A study of Caenorhabditis elegans with 8 samples.

Results

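The 8 SR splicing factor genes rsp-1 to rsp-8 of Caenorhabditis elegans were examined in peak lists from chromatin immunoprecipitation of SKN-1, out of 19971 protein-coding genes on the 6 nuclear chromosomes. The family was taken up because rsp-6 lies at a region called in both gain-of-function lists and in no wild-type list, so the genes were chosen by the peak calls at rsp-6 in these 4 lists, and that pattern is given here as a description. All 8 names were found in the gene table used here. Whole animals grown at 20°C carried SKN-1 tagged with green fluorescent protein, either in wild-type form (WT) or with the gain-of-function allele SKN-1gf(lax188) (GF), and tagged protein was captured with a Chromotek reagent. Each genotype has 2 lists, called WT 1, WT 2, GF 1 and GF 2, and samples without antibody, 4 in all, were left out. The stage of the animals, how the tag was introduced and whether replicates were separate cultures are not in the labels. A list from whole animals sums over all tissues, so a site used in few cells and a weak site used in many cannot be told apart.

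SR proteins pair an RNA recognition motif with a tail rich in arginine and serine. They sit on exons of a new transcript, help the U1 particle and the U2AF factor find the splice sites, and are regulated by SR protein kinases that phosphorylate the tail. In animals many SR genes also adjust their own messages by alternative splicing coupled to nonsense-mediated decay. The transcription factor SKN-1, a relative of Nrf2 in mammals, is best known for driving detoxification and oxidative stress genes.

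WT 1 held 15943 peaks, WT 2 held 29541, GF 1 held 25007 and GF 2 held 905, and the lists carry no read counts, so depth is unknown. A gene without a summit is therefore a gene without a call, not a gene shown to be free of SKN-1. Names of WT 2 peaks bear the label of the other WT replicate, and the sample record was followed. With 2 lists against 2, a two-sided exact permutation p can be no smaller than 0.333, and no difference between genotypes was tested.

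A summit is the single base at which a peak is highest, and its fold is the authors' enrichment over the caller's background. At rsp-6, the homolog of the mammalian SR protein SRp20, WT 1 had summits with folds of 1.58 and 1.25, WT 2 one with 1.62, GF 1 a pair with 1.85 and 1.76, and GF 2 one with 1.45. Every list thus called a peak at this gene. The single GF 2 value was below the strongest value of each other list, which in the WT lists lay at another site. Each fold comes from its own list's background, so its place in that list is the safer reading. Ranked by fold within its list, the strongest summit stood in the upper 24.0% (WT 1), 22.8% (WT 2), 12.6% (GF 1) and 64.6% (GF 2). The region that both GF lists called and no WT list called spans 7789691 to 7790111 on chromosome IV (build ce10). Its summits, at 7789815 in GF 1 and 7789791 in GF 2, were 24 bp apart and lay between rsp-6 and its neighbour imp-3, a gene of the presenilin-like intramembrane protease family, nearer to rsp-6. A shift of 100 bp between builds could place them inside rsp-6. Across the genome 35 of 35430 merged regions (0.0988%) were in both GF lists and in no WT list. With 905 peaks, GF 2 could hold few of the 35430, and 454 were in all 4 lists. The region at rsp-6 is among the 35 and was the reason for taking up the family.

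The WT lists and GF 1 shared a second site inside rsp-6. Their summits there, at 7790320 (WT 1), 7790317 (WT 2) and 7790324 (GF 1), fell within 7 bp of each other. GF 2 had no call at that position. In GF 1 the site between the genes and the site inside rsp-6 were 509 bp apart and were called as separate peaks of 201 and 463 bp. The WT 2 peak was 957 bp wide and began 54 bp beyond the end of the GF 2 peak, and the nearest WT 1 peak began 144 bp beyond it. When peaks up to 100 bp apart were joined, a setting chosen after this gap was seen, the whole stretch became 1 region held by all 4 lists. The GF 1 and GF 2 peaks overlapped by 127 bp of their 201 and 347 bp, and no region of this pattern was left with a reciprocal overlap of 50% or at a -log10 q of at least 5. The GF 2 peak had a -log10 q of 3.44 against 14.1 for the GF 1 peak at the same place.

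**Figure D1:**
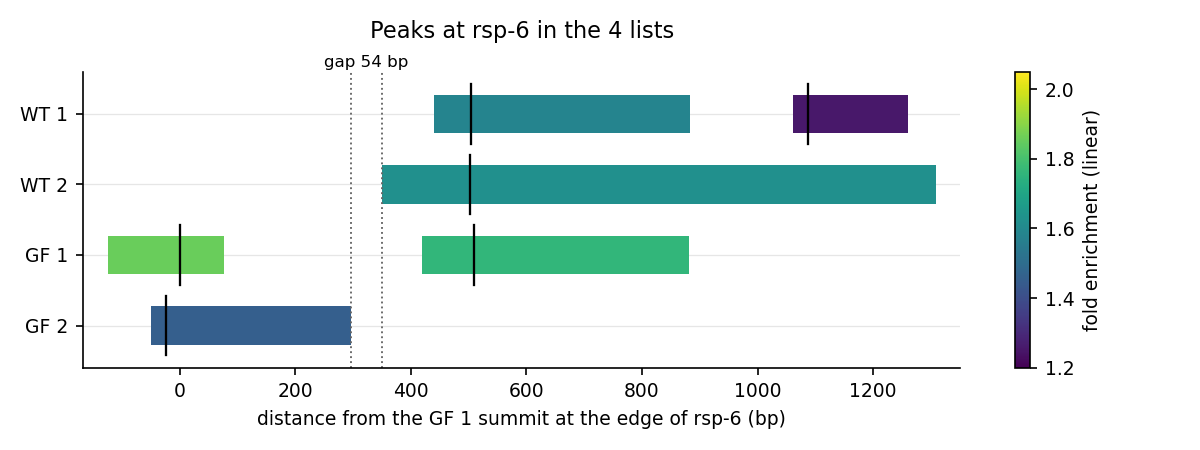
Peaks at rsp-6 in the 4 lists, with position in bp from the GF 1 summit between imp-3 and rsp-6 on the horizontal axis, a row per list, bars for the extent of each peak, black lines for summits and colour for fold enrichment. The GF 1 and GF 2 summits near 0 lie 24 bp apart, the summits of WT 1, WT 2 and GF 1 further right fall within 7 bp, and the dotted lines mark the 54 bp between the GF 2 and WT 2 peaks.

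Counted over whole genes with 2000 bp on either side, rsp-6 and the other 7 genes showed no pattern limited to 1 genotype. A summit lay in or within 2000 bp of 7 of the 8 genes in WT 1, where 58.6% of all protein-coding genes had one. WT 2 and GF 1 each had a summit at all 8, against 81.8% and 75.6% of all genes. In GF 2 it was 5 of 8, namely rsp-3, rsp-5, rsp-6, rsp-7 and rsp-8, against 7.06% of all genes. The call at rsp-6 is part of what chose the family, and without it GF 2 had 4 of 7. Those 5 were also the ones with a summit in all 4 lists, which 5.65% of genes had. With GF 2 left out, 7 of the 8 had a summit in each remaining list, against 53.3% of genes. No rsp gene had a summit in both GF lists and in neither WT list (0.0501% of all genes). None had one in both WT lists and in neither GF list (2.61%). Few genes of the genome had either pattern, so its absence at 8 genes says little about the family. Because 3 of the lists reach most genes of the genome, the counts of 7 or 8 there sit on a high background. The GF 2 count depends on the window: it was 3 of 8 within 1000 bp (rsp-3, rsp-6 and rsp-8, background 5.46%) and 1 of 8 in the gene body alone (rsp-8, background 2.65%). In the gene body alone WT 1 had 5 of 8 (background 34.2%), WT 2 had 7 (55.4%) and GF 1 had 8 (49.2%).

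**Figure D2:**
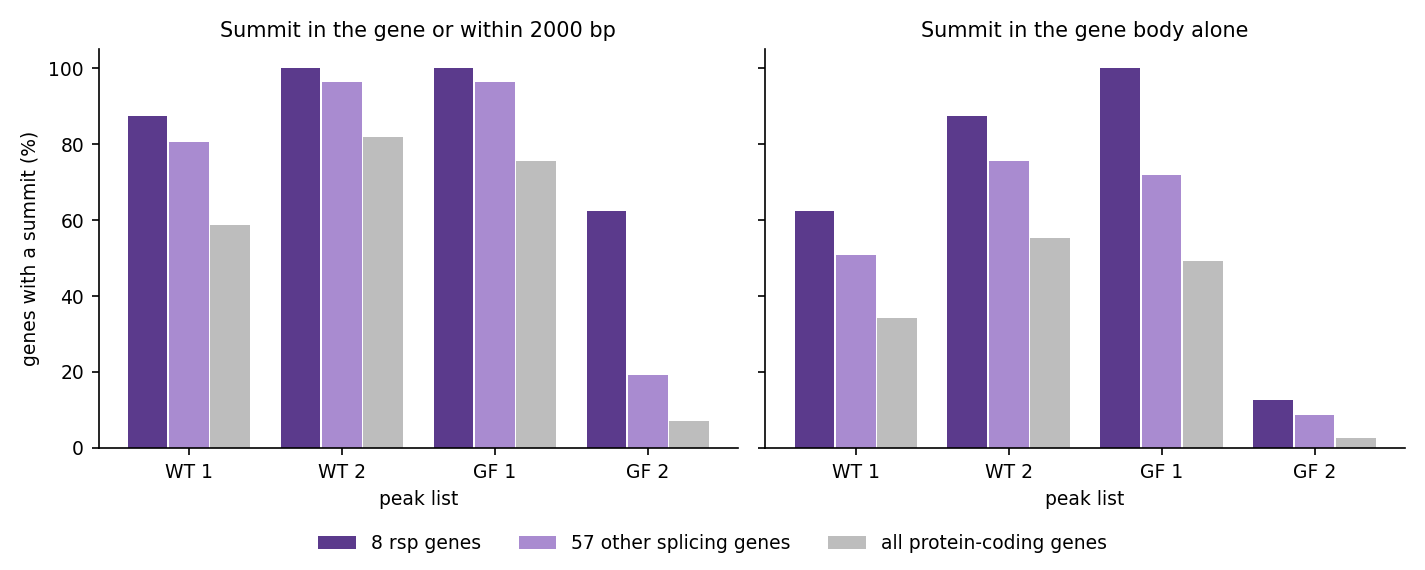
Percent of genes with a summit in each list (vertical axis, from 0) for the 8 rsp genes, 57 other splicing genes and all protein-coding genes, with a 2000 bp margin (left) and in the gene body alone (right). With the margin the grey background bars reach 58.6%, 81.8%, 75.6% and 7.06%, and in GF 2 the rsp bar of 62.5% falls to 12.5% in the gene body alone.

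In all, 68 different summits lay at the 8 genes, 15 (WT 1), 22 (WT 2), 26 (GF 1) and 5 (GF 2). Since rsp-1 and rsp-2 are neighbours and share 8 of them, these make 76 pairs of a gene and a summit, of which 35 were inside the gene. For 42 pairs the rsp gene was the protein-coding gene nearest to the summit or tied for it. The others were nearer to, or inside, a neighbouring gene. The gene table and the lists use different builds, and a shift of 100 bp would move 18 of the 76 pairs across a limit of the distance classes used here (inside, within 500, 1000 or 2000 bp, beyond).

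By the mean of its places in the 4 lists (8.98% from the top), the strongest calls of the family were at rsp-3, the homolog of the mammalian splicing factor SF2/ASF. Its highest fold was 1.79 (WT 1), 1.78 (WT 2), 1.93 (GF 1) and 1.89 (GF 2). Ranked by fold within its own list, that summit fell in the upper 6.90%, 9.80%, 9.05% and 10.2% of peaks in the same order. The shares were alike, but the lists differ in length, and the ranks were 1100, 2895, 2262 and 92. These summits lay at 12686679, 12686668, 12686640 and 12686537 on chromosome III, within 500 bp of an end of rsp-3 or, with a shift of 100 bp in the first 3 lists, inside it. The 3 long lists were within 39 bp of each other and GF 2 was 103 bp from the nearest of them. WT 2 called 1 peak of 1241 bp across the gene, where WT 1 called 3 peaks and GF 1 called peaks of 692 and 331 bp. A further pair of summits inside the gene, at 12687531 in WT 1 and 12687529 in GF 1, were 2 bp apart.

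At rsp-8, whose closest mammalian relatives are the Tra2 splicing regulators, the highest fold was 1.57 (WT 1), 1.76 (WT 2), 1.92 (GF 1) and 1.90 (GF 2). Those values fell in the upper 25.4%, 11.0%, 9.41% and 9.72% of their lists, lowest in WT 1. Among the 8 genes, rsp-8 alone had a GF 2 summit inside its body, at 11830687 on chromosome III. In WT 2 (fold 1.70 here) and GF 1 the matching summits were at the same base, 11830659, and in WT 1 the summit was at 11830544, 115 bp away. The highest WT 2 summit was at another site inside rsp-8, at 11828759 in WT 2 and 11828760 in GF 1, and one more had them 7 bp apart, at 11829992 and 11829985. The region of all 4 lists, 11830492 to 11831453, ran past rsp-8 into its neighbour ntl-3, which encodes a subunit of the CCR4-NOT deadenylase complex.

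The peak at rsp-7 belonged by position to another splicing gene. Its highest fold was 1.66 (WT 1), 1.42 (WT 2), 2.01 (GF 1) and 1.60 (GF 2), with places in the upper 15.2%, 63.8%, 6.41% and 33.4% of the lists. By fold and by place GF 1 was highest and WT 2 lowest, and since GF 2 fell between WT 1 and WT 2 the genotypes overlapped. The 3 long lists put the summit at 10657973, 10657989 and 10657980 on chromosome II, within 16 bp, and GF 2 put it at 10657885, 88 bp from the nearest of them. All of these were nearest to snu-13, which encodes a U4 small nuclear ribonucleoprotein, and lay more than 500 bp from rsp-7. Inside rsp-7 itself the folds were lower, with 1 summit in WT 2 (1.32) and 2 in GF 1 (1.35 and 1.43).

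A similar position was found at rsp-5, the shortest of the genes (1176 bp in the table). Its highest fold was 1.49 (WT 1), 1.96 (WT 2), 1.79 (GF 1) and 1.39 (GF 2), in the upper 43.2%, 4.22%, 17.1% and 80.2% of the lists. By fold and by place WT 2 was highest and GF 2 lowest, and the genotypes overlapped. The highest summits in WT 2, GF 1 and GF 2 were nearest to T28D9.11, T28D9.1 with twk-49, and T28D9.1, in that order. Inside rsp-5, WT 1 and WT 2 each had a pair of summits and GF 1 had 1. The 2 regions at the rsp genes that both WT lists and no GF list called were at rsp-5, where WT 1 had 1.49 and WT 2 had 1.68, and at rsp-1, with 1.35 and 1.34 and the WT 2 summit just past the 2000 bp limit. They are 2 of 29 regions here, and 4.21% of all regions had that pattern. On its other side rsp-5 has the Sm protein gene snr-3, which is nearest to a further GF 1 summit.

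The adjacent genes rsp-1 and rsp-2 had no summit in GF 2. Their shared summit of highest rank inside rsp-2 had a fold of 1.42 (WT 1), 1.56 (WT 2) and 1.63 (GF 1), at 11451960, 11451914 and 11451915 on chromosome II, a span of 46 bp. It stood in the upper 60.8%, 32.4% and 34.1% of those lists. Inside rsp-1, WT 2 had 3 summits (folds 1.49, 1.46 and 1.49) and GF 1 had 2 (1.61 and 1.57), while WT 1 had none. The fold of 1.75 in WT 2 that is the highest for rsp-2 came from a summit nearest to W02B12.1.

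The weakest case was rsp-4, the homolog of the mammalian splicing factor SC35, with no summit in WT 1 or GF 2. WT 2 had folds of 1.21 inside the gene and 1.48 nearest to ndx-6, and GF 1 had 1.45 and 1.26 in the same order. The summits nearest to ndx-6 were 14 bp apart, and those inside rsp-4 were 102 bp apart. The strongest of them reached the upper 49.5% of WT 2 and the upper 71.6% of GF 1.

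**Figure D3:**
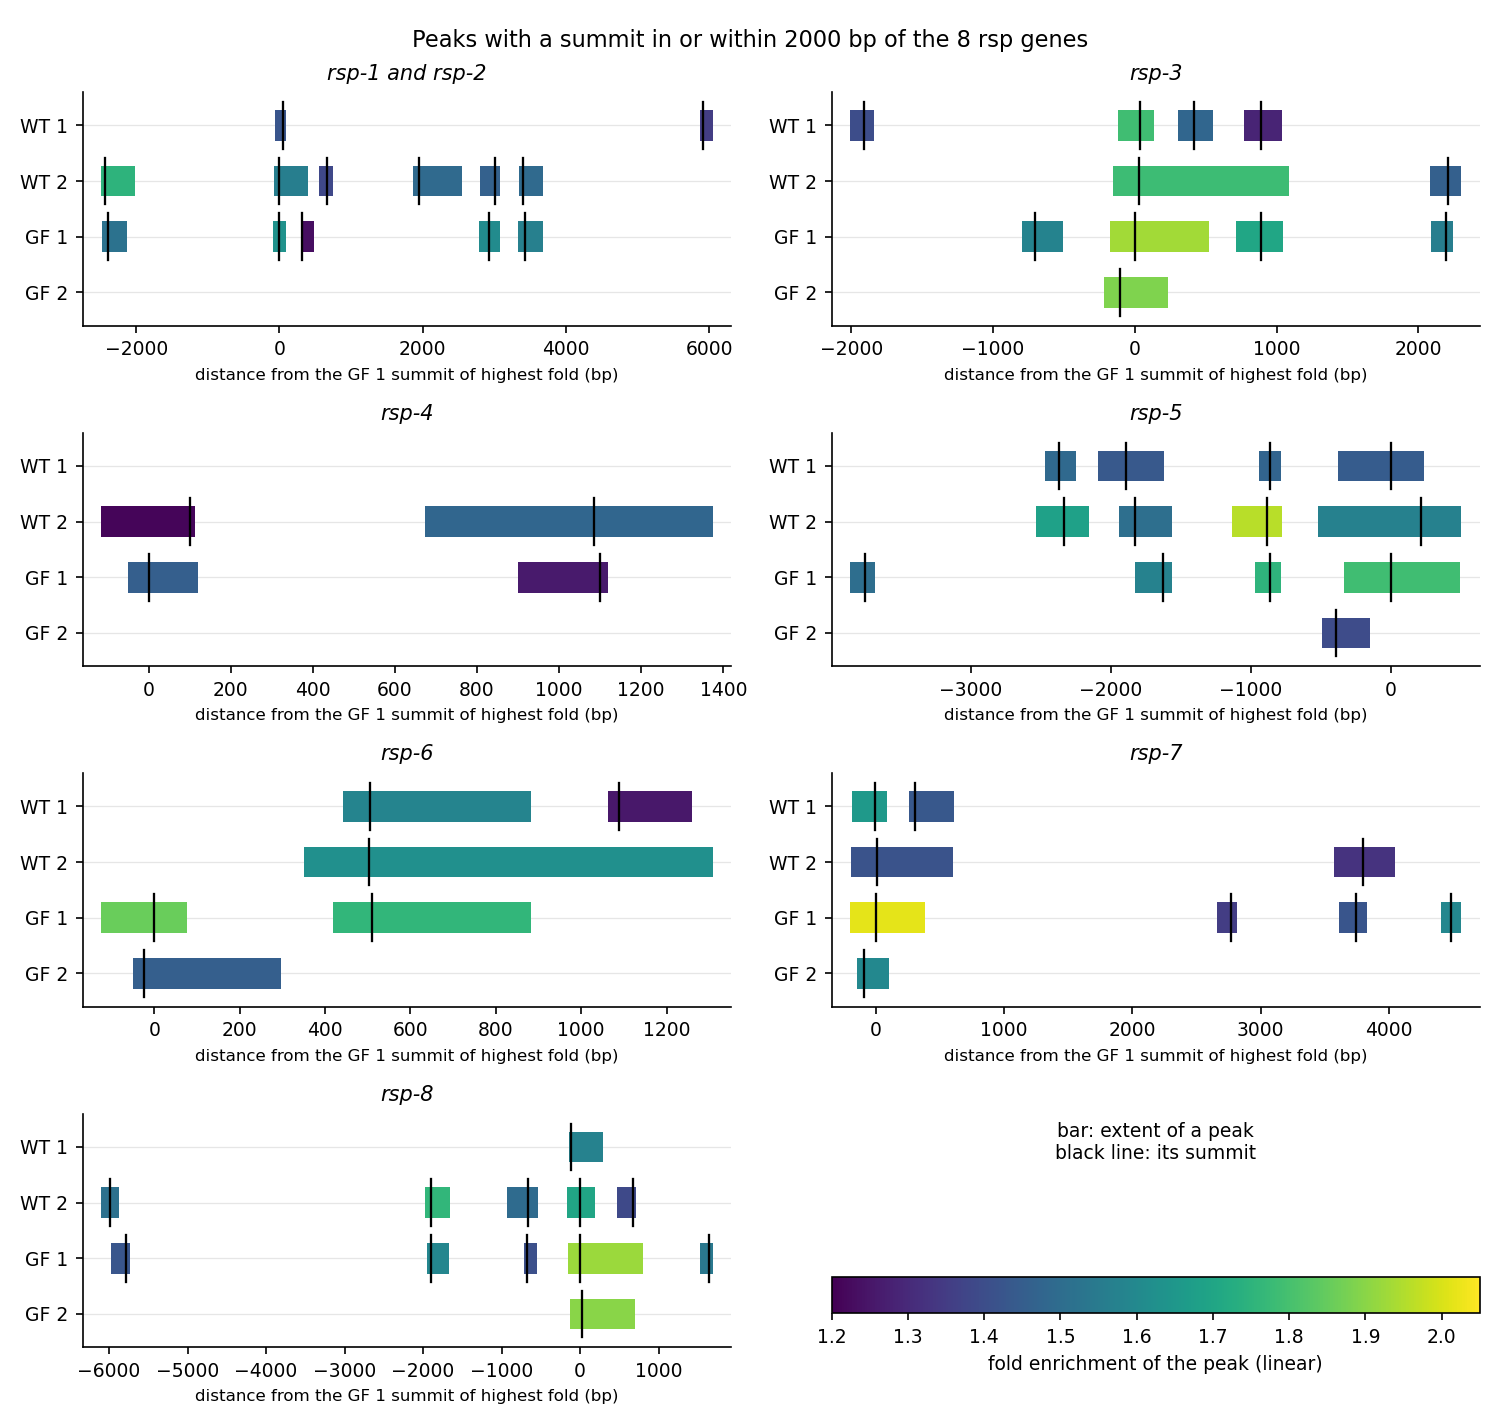
Peaks at the 8 rsp genes in the 4 lists, with distance in bp from the GF 1 summit of highest fold at each gene on the horizontal axis, a row per list, bars for peak extent, black lines for summits and colour for fold. GF 2 has 1 peak each at rsp-3, rsp-5, rsp-6, rsp-7 and rsp-8 and none at rsp-1, rsp-2 or rsp-4, and the long lists place many summits at nearly the same distance.

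Agreement between lists was measured by joining summits that lay within 100 bp of the next into sites. The 68 summits, with 1 further WT 2 summit that lies just past the limit at rsp-1, formed 42 sites. Of these 1 was held by all 4 lists, 5 by 3 lists, 14 by 2 and 22 by 1. Of the 5, the 3 long lists held 4 (7213 of all 44290 sites had that pattern). Of the 22, WT 2 held 6, GF 1 held 9, WT 1 held 5 and GF 2 held 2. Across the genome such single-list sites numbered 12286, 8318, 4019 and 363, in that order. The site of all 4 lists was the one nearest to snu-13 at rsp-7, and 1.73% of all protein-coding genes had such a site in the gene or within 2000 bp. A site of the 3 long lists was present at 6 of the 8 genes (rsp-1, rsp-2, rsp-3, rsp-5, rsp-6 and rsp-7), against 36.6% of all genes, and rsp-1 and rsp-2 count the same one. WT 2 and GF 1, the longest lists, shared 8 sites that no other list held, a pattern of 16.2% of all 44290 sites. WT 1 and WT 2 shared 3 (5.62% of all sites), and GF 1 and GF 2 shared 1 (0.187%), the site between imp-3 and rsp-6. That site is the one that chose the family, so its presence was fixed beforehand. The short GF 2 list also keeps the share over all sites low. By overlap of whole peaks, joined across all 4 lists, the genes had 29 regions. Of these, all 4 lists held 4 (1.28% of all 35430 regions did so) and the 3 long lists alone held 4 (29.5%). A pair of lists held 13 and a single list held 8. Of the 13, WT 2 and GF 1 shared 10, WT 1 and WT 2 shared 2, and GF 1 and GF 2 shared 1. Across the genome those pairs alone held 7993, 1491 and 35 regions. Of the 8, GF 1 held 5, WT 2 held 2 and WT 1 held 1, against 4094, 8275 and 1359 regions of the genome. The 4 in all lists lay at rsp-3, rsp-5, rsp-7 and rsp-8.

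The peaks at the rsp genes were not among the 905 of highest fold in any of the 3 long lists. The highest-placed summit at any of the genes stood in the upper 6.90% of WT 1 (rsp-3), 4.22% of WT 2 (rsp-5), 6.41% of GF 1 (rsp-7) and 9.72% of GF 2 (rsp-8). When each long list was shortened to its 905 peaks of highest fold, the length of GF 2, the rsp genes had 0 of 8 with a summit in WT 1, WT 2 and GF 1, where 5.26%, 5.51% and 6.07% of all genes did. GF 2, at that length, had 5 of 8 (7.06%), or 4 of 7 without rsp-6, whose call is part of what chose the family. GF 1, the other list of its genotype, had 0. Over the genes with a summit (7, 8, 8 and 5 of 8), the strongest summit stood at a median of 25.4%, 17.2%, 14.9% and 33.4% from the top of WT 1, WT 2, GF 1 and GF 2, against 36.3%, 29.6%, 31.6% and 40.9% for all genes with a summit. The rsp genes had a median of 2, 3, 4 and 1 summits each, against 1, 2, 1 and 0 for all genes, and a gene with more summits has more chances of a high one. Whether number and height are linked here was not tested.

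**Figure D4:**
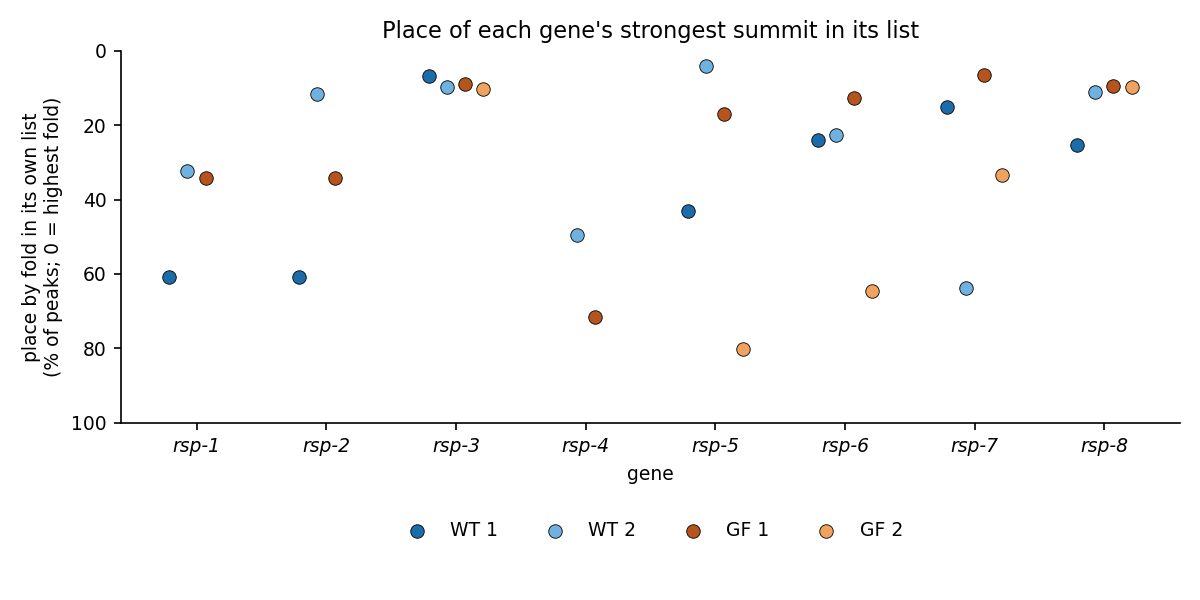
Place by fold of each rsp gene's strongest summit within its own list, in percent of that list's peaks from the highest fold (0, top), with 1 point per list. The 4 points of rsp-3 lie between 6.90% and 10.2%, while those of rsp-5 spread from 4.22% to 80.2%.

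Other genes of the splicing machinery were set beside the family in 5 lists with 57 genes. A summit in or within 2000 bp was found at 46 of the 57 (WT 1), 55 (WT 2), 55 (GF 1) and 11 (GF 2), against the backgrounds of 58.6%, 81.8%, 75.6% and 7.06% given above. In GF 2 this was 19.3% of them, against 62.5% of the rsp genes, or 57.1% without rsp-6, and the difference between these groups was not tested. That difference depends on the window. Within 1000 bp the GF 2 shares were 19.3% and 37.5% (5.46% of all genes), and in the gene body alone 8.77% and 12.5% (2.65%). Counting only the nearest protein-coding gene gave 10.5% and 37.5% (3.49%). Summits in all 4 lists were found at 9 of the 57, against 5.65% of all genes. With the 2000 bp margin, no gene of the 5 lists had a pattern limited to both lists of a single genotype. Among all protein-coding genes 0.0501% had summits from the GF pair only and 2.61% from the WT pair only, so this absence says little. The absence also depends on the window. In the gene body alone, 1 of the 57 had summits from the WT pair only (2.09% of all genes). Counting only the nearest protein-coding gene also gave 1 (2.3%). Among the SR kinase and SR-related genes, all 3 had a summit in each long list and 1, spk-1, which encodes the SR protein kinase, also in GF 2. The folds at spk-1 were 1.74 (WT 1), 1.67 (WT 2), 1.65 (GF 1) and 1.66 (GF 2), in the upper 9.07%, 17.3%, 32.4% and 23.8% of the lists, and each summit was nearest to spk-1. At equal list length (905 peaks), 3 of the 57 other splicing genes had a summit in both GF lists and in no WT list. They are snr-4, teg-4 and hrpa-1, named after their values were seen. Of all protein-coding genes 0.721% had that pattern at this length. In the full lists teg-4 and hrpa-1 had a summit in all 4 lists, and snr-4 in WT 2, GF 1 and GF 2. The pattern therefore rests on the cut at 905 peaks. The GF 1 summits of snr-4 and teg-4 were nearest to the proteasome gene rpt-1 and to ahcy-1.

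Of 6 genes for splice site recognition, which include the U2AF genes uaf-1 and uaf-2, 4, 6, 6 and 0 had a summit in WT 1, WT 2, GF 1 and GF 2, where 58.6%, 81.8%, 75.6% and 7.06% of all genes did. The Sm and U6 LSm ring proteins, which encircle the small nuclear RNAs, had 11, 13, 13 and 4 of 14. Summits in all 4 lists were found at snr-6, lsm-7 and lsm-8, where in most lists the highest one was nearest to another gene (pie-1, lgg-2 or dnc-1, and sqd-1). Core spliceosome and remodelling proteins had 14, 18, 18 and 5 of 19. Their genes in all 4 lists were snrp-200, hel-1, teg-4 and mog-2. At snrp-200, a U5 helicase gene, the folds were 1.54, 1.67, 2.04 and 1.65. The GF 1 fold of 4.05 counted for teg-4 came from a summit nearest to ahcy-1.

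The hnRNP and tissue-specific splicing regulators had a summit at 14, 15, 15 and 1 of 15 genes in WT 1, WT 2, GF 1 and GF 2, against 58.6%, 81.8%, 75.6% and 7.06% of all genes, so the GF 2 count is near the background. The gene with the GF 2 summit was hrpa-1, an hnRNP A1 homolog, whose strongest summit fell in the upper 5.85% of WT 1, 3.38% of WT 2, 2.38% of GF 1 and 46.4% of GF 2. In each long list that is a higher place than that of rsp-3, and in GF 2 rsp-3 was higher, at 10.2%.

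The genes most like rsp-6 in their highest fold over the 4 lists, by Euclidean distance of log2 folds, were first its own neighbours imp-3 and C33H5.13, at a distance of 0 because they share its summits. The next were swp-1 at 0.047 (folds 1.59, 1.64, 1.88 and 1.42 in WT 1, WT 2, GF 1 and GF 2), hrpa-2 at 0.049 (1.59, 1.66, 1.88 and 1.43) and Y71F9AL.8 at 0.066 (1.64, 1.64, 1.85 and 1.42). With 4 lists this likeness is a description of the values.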

How the data were processed

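The authors deposited 1 narrowPeak list per precipitated sample, so peaks were called per sample. Per the submitters' processing notes, which give no settings, the tools were MACS2 2.2.7.1, SAMtools 1.10, BWA 0.7.17 and Trim Galore 0.6.4 and the build was ce10. The control for peak calling is not stated there. Per peak, the deposited values are a fold enrichment (a ratio to background), a -log10 p and -log10 q (lowest -log10 q 1.3), a score that is 10 times the -log10 q, and the summit offset. Animals were crosslinked with 1.1% formaldehyde, per the labels' protocols.

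Summits were assigned to genes of a RefSeq table of assembly WBcel235, which gives no strand and is not the build of the lists. Its positions are not printed, and the counts were made again after moving summits by 100 bp either way. All 8 members, and all 57 other splicing genes, matched by symbol. No genome or sequence table was used, so no sequence or SKN-1 motif is shown. Regions were peaks of the 4 lists merged by an overlap of 1 bp. Samples were grouped by title, WT and GF with antibody, 2 each. The rsp genes and all gene lists were chosen with earlier results of these data known, so no test was made on them, and counts stand beside the percent of all protein-coding genes. Named by rule were all members, genes of the other lists with a summit in all 4 lists or in both lists of 1 genotype alone (up to 4 per list), the 5 genes most like rsp-6 (a list without a summit taken as log2 fold 0), neighbours sharing a summit, gcs-1 and gst-4. The assignment was tested on simulated data. Python 3.11.15, NumPy 2.4.6, pandas 2.3.3 and matplotlib 3.10.9 were used.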

Additional observations from a re-analysis of the deposited data

How the results depend on the processing

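Of 112 alternatives over 15 counts, 74 stayed within 1.5 times the value reported, among them every count of rsp genes with summits moved by 100 bp either way or with any base of the peak in place of its summit. With lists of 905 peaks each, the count of rsp genes was 0 in WT 1, WT 2, GF 1, both WT lists, both GF lists and all 4 lists. Of all genes 5.26%, 5.51%, 6.07%, 2.96%, 1.77% and 0.561% had a summit there, in that order. The 5 rsp genes of GF 2, of both GF lists and of all 4 lists became 3 within 1000 bp. They also became 3 at a -log10 q of at least 5 and for the nearest protein-coding gene. In the gene body alone they became 1, and both WT lists held 4 (31.6% of all genes). The shares of all genes in GF 2 were 5.46%, 4.17%, 3.49% and 2.65% in that order. They were 4.87%, 3.73%, 2.92% and 2.06% for both GF lists, and 3.85%, 2.83%, 2.34% and 1.65% for all 4 lists. Leaving out a list gave 7 to 8 for both WT lists, 5 to 8 for both GF lists (8 without GF 2) and 5 to 7 for all 4 lists. For a genotype, such a count is that of its remaining list alone. Of all genes 58.6% (WT 1), 81.8% (WT 2), 75.6% (GF 1) and 7.06% (GF 2) had a summit in that list. The 7 of all lists without GF 2 stood beside 53.3% of all genes.

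The 29 regions became 44 with a reciprocal overlap of 50%. The 4 regions of all lists became 2 with that overlap and 1 with summits within 100 bp. The region of both GF lists alone at rsp-6 was lost (0) with reciprocal overlap, at a -log10 q of at least 5 and with peaks up to 100 bp apart merged. The 2 regions of both WT lists alone became 1 at that q, within 1000 bp and with merging across gaps. Leaving out a list, an alternative added after seeing the data, gave 24 to 30 regions, 4 to 8 in all remaining lists (8 without GF 2), 1 to 6 for GF alone (6 without GF 2) and 2 to 6 for WT alone (4 without WT 2, 6 without GF 1). The cause was not tested.

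The other splicing genes numbered 29 in WT 1 and 5 in GF 2 in the gene body alone, where 34.2% and 2.65% of all genes had a summit. At 905 peaks they numbered 1, 1 and 4 in WT 1, WT 2 and GF 1, where 5.26%, 5.51% and 6.07% of all genes did. No paired analysis was possible because the results come from no test and replicate numbers mark no shared batch in the labels. Depth is unknown and the lists differ in length, so counts of different full lists do not stand on an equal footing.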

Other observations

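The genes for nonsense-mediated decay, the pathway that removes faulty messages and many SR gene isoforms, had a summit in or within 2000 bp at 4, 7, 5 and 0 of 7 genes in WT 1, WT 2, GF 1 and GF 2. Among all protein-coding genes the shares were 58.6%, 81.8%, 75.6% and 7.06%.

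Of the textbook SKN-1 targets looked up, 1 of 2 was called in any list. At gst-4, a glutathione S-transferase gene, no list had a summit in the gene or within 2000 bp. At gcs-1, the gene for the rate-limiting enzyme of glutathione synthesis, WT 2 had a highest fold of 1.56 and GF 1 of 1.54. Those summits stood in the upper 32.4% of WT 2 and 52.3% of GF 1, and WT 1 and GF 2 had no summit. Of all protein-coding genes 58.6%, 81.8%, 75.6% and 7.06% had a summit in WT 1, WT 2, GF 1 and GF 2, so a call in the long lists is common.

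Near the 2000 bp limit, 5 pairs of a gene and a summit lay in the last 100 bp inside it, with folds from 1.35 to 1.75, and 3 in the first 100 bp outside it, with folds from 1.31 to 1.34.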
